A study of Mus musculus with 6 samples.

Results

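The PERK-ATF4 stress and amino acid genes were examined in pancreatic islets of hIAPP-Tg mice and of wild-type mice. The members were 33 named genes, and all probe sets annotated to exactly 1 of these symbols were used. Of the 33 genes, 31 were measured, by 70 probe sets, out of 18193 named genes on the array. Gdf15 and Pycr1 were not analysed here. In every count a gene was read from its brightest probe set, that of the highest mean on all 6 arrays.

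Islet RNA of 3 hIAPP-Tg mice (replicates 4 to 6) and 3 wild-type mice (replicates 1 to 3) was hybridized to Affymetrix mouse arrays, 1 array per mouse. The transgene puts human islet amyloid polypeptide, a beta-cell peptide that forms amyloid in its human form, under an insulin gene promoter, so it is driven in beta cells. Mice of both genotypes are labelled FVB/N-Tg(Ins2-IAPP)RFHSoel/J by strain, were on standard chow, and were 12 weeks old by the labels, while the design text gives 10 to 12 weeks. The sources used here give no sex, zygosity or hour of collection. All values are log2 RMA values as deposited, rounded to a step of 0.1, and a difference of 1 on this scale is 2-fold. Every array had a median of 5.7, and probe sets under that median may lie within background. In these whole-islet samples, fewer cells of a type and less RNA per cell cannot be told apart.

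PERK, encoded by Eif2ak3, is a kinase in the membrane of the endoplasmic reticulum that senses misfolded protein and phosphorylates the initiation factor eIF2. Most translation then slows, while the mRNA of the transcription factor ATF4 is translated more. ATF4 with C/EBP partners switches on genes of amino acid uptake and synthesis, of redox defence and, through CHOP (Ddit3), of cell death. The same output follows from amino acid shortage and mitochondrial stress through other eIF2 kinases. Beta cells make large amounts of secreted protein, and loss of PERK is known to destroy them in mouse and human.

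The DNA word that ATF4 and C/EBP proteins bind as a pair, the C/EBP-ATF response element, was searched as TGATGNAA on both strands of RefSeq promoter windows (GRCm38.p6, 250 bases before to 50 after each start). It was found in 1304 of 32851 windows, 3.97%. Of the members, 29 had a window and 8 of these held the word: Asns, Chac1, Slc1a4, Nupr1, Trib3, Fgf21, Vldlr and Pycr1. The ER stress element of the ATF6 arm was in 39 of the 32851 windows (0.119%) and in 0 of the members' windows. At so low a share 0 was likely for any genes, so it does not tell the 2 arms apart. A match is a description of the letters, not of binding. The windows of 5 measured members are shown. Of these, Asns, Chac1, Slc1a4 and Trib3 have their values on every array given further on. Capitals mark the word. The windows are, on GRCm38.p6, chr6:7693160-7693459 (minus strand) for Asns, chr2:119350992-119351291 (plus) for Chac1, chr11:20332664-20332963 (minus) for Slc1a4, chr7:126625421-126625720 (minus) for Nupr1 and chr2:152344011-152344310 (minus) for Trib3.
Asns: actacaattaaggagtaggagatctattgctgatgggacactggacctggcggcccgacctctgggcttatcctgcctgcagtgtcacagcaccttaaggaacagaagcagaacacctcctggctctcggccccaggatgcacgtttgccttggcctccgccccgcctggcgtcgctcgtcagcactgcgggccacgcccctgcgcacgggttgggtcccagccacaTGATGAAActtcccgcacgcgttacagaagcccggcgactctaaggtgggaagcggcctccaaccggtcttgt
Chac1: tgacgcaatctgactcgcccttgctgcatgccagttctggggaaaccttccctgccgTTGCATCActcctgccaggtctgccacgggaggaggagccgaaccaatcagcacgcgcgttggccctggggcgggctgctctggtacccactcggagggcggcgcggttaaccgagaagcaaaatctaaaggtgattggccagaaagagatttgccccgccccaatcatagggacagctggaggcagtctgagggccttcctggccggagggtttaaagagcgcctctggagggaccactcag
Slc1a4: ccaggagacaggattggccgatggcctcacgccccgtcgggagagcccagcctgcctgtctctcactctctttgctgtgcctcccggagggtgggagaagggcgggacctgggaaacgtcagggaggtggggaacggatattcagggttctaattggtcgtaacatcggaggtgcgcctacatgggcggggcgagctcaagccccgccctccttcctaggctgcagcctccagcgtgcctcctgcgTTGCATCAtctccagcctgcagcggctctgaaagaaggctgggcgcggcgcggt
Nupr1: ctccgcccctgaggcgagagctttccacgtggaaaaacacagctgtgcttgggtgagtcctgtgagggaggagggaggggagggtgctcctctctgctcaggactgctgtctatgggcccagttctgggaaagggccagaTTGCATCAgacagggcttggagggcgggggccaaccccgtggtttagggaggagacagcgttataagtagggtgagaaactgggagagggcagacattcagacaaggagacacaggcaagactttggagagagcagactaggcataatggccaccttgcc
Trib3: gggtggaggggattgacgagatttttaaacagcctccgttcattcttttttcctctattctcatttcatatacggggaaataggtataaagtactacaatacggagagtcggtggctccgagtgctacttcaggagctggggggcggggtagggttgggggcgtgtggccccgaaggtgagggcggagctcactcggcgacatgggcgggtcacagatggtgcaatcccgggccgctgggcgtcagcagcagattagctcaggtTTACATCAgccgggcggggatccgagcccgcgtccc
The word began 23 bases before the start of Asns, 193 before that of Chac1, 4 before that of Slc1a4 and 110 before that of Nupr1, and 14 bases after that of Trib3. In Asns it lay on the gene's strand and in the other four on the opposite strand, where it reads TTNCATCA.

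No gene of the module passed the test between genotypes. In limma with Benjamini-Hochberg adjustment over 45037 probe sets, 0 of 31 members had an adjusted p under 0.05, and 8 of all 18193 genes did (0.044%). At an unadjusted p under 0.05, 2 members were higher in hIAPP-Tg islets (Cebpb and Ddit4), where 5.02% of all genes were, and 0 were lower, where 3.45% of all genes were. The count of 0 members at an adjusted p under 0.05 was the same without each array in turn. These included hIAPP-Tg replicate 5 and wild-type replicate 1, which stood apart in several members and in markers of other cells. Only 1 to 4 of all probe sets passed without 1 array, so this count could hardly have changed and says little about those arrays. The median difference over the 31 members was 0.033, with 17 above 0 and 13 below, beside a median of 0 over all genes and of 0.033 over the 11755 genes at or above the array median, where 29 of the 31 members lie. Members differed by -0.40 (Mthfd2) to 0.43 (Ddit4). For 29 of the 31 the 95% interval of the difference lay within 2-fold either way, as it did for 98.4% of all genes, and for 23 (74.2%) it lay within 1.5-fold, as it did for 91.7% of all genes. The exceptions at 2-fold were Chac1 and Mthfd2. RMA compresses differences, so these intervals hold for the array scale.

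**Figure D1:**
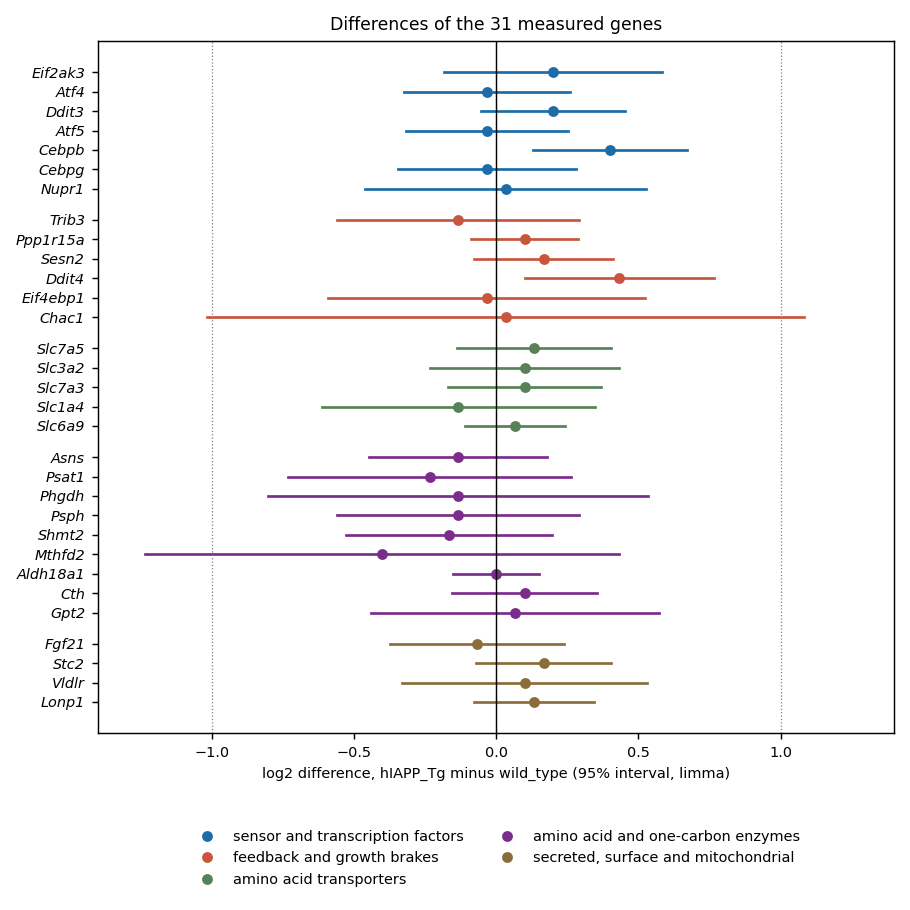
Difference of each of the 31 measured genes, hIAPP-Tg minus wild type, on the log2 RMA scale (x axis), with genes down the page coloured by role. Points are differences, lines are 95% limma intervals from 3 arrays each, and dotted lines mark 2-fold. Only Cebpb and Ddit4 have intervals that leave out 0.

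The sensor Eif2ak3 and the factors Atf4 and Ddit3 had overlapping values in the 2 genotypes. Eif2ak3 was at 9.5, 10.0 and 9.7 in hIAPP-Tg islets, against 9.3, 9.7 and 9.6 in wild-type islets, a difference of 0.20 (95% interval -0.18 to 0.58; limma adjusted p = 0.791). Its ranges overlapped, and its other 2 probe sets, both under the array median, differed by 0.10 each. Atf4 stood at 11.7, 11.5 and 11.7 in hIAPP-Tg islets and at 11.6, 11.9 and 11.5 in wild-type islets (difference -0.033, interval -0.32 to 0.26; limma adjusted p = 0.933). The wild-type arrays enclosed the hIAPP-Tg ones, and the other Atf4 probe sets differed by 0.20 and -0.033. ATF4 is controlled mainly through translation of its mRNA, which an array does not read. Ddit3, which encodes the pro-apoptotic factor CHOP, was at 9.5, 9.4 and 9.6 in hIAPP-Tg islets, against 9.4, 9.4 and 9.1 in wild-type islets. Its difference was 0.20 (interval -0.05 to 0.45; limma adjusted p = 0.683), the ranges met at 9.4, and its second, dimmer probe set differed by -0.067. Atf5, a relative of ATF4 tied to mitochondrial stress and beta-cell survival in mouse, and Cebpg, a C/EBP partner of ATF4, both differed by -0.033. Nupr1, a small stress-induced chromatin protein, differed by 0.033.

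Cebpb, a C/EBP family factor that pairs with ATF4 and also serves inflammatory and macrophage gene programmes, was the one member whose genotypes did not overlap, where 4.49% of all genes stood so in this direction. It was at 8.9, 8.9 and 8.8 in hIAPP-Tg islets, against 8.4, 8.7 and 8.3 in wild-type islets. The means were 8.87 ± 0.058 and 8.47 ± 0.21 (SD, n = 3 each), a difference of 0.40 (SE 0.11, interval 0.13 to 0.67) that did not pass (limma adjusted p = 0.521). Every hIAPP-Tg array was above every wild-type array on this probe set. On its second, dimmer probe set Cebpb was at 6.3, 6.1 and 6.2 in hIAPP-Tg islets and at 5.8, 6.1 and 5.9 in wild-type islets, with a difference of 0.27 and ranges that met at 6.1. Leaving out each array in turn, the Cebpb difference was 0.32 to 0.52. Macrophage markers were higher in the same arrays: 17 of 19 markers lay above 0 with a median difference of 1.1, and the mean over the list was 8.11 to 8.28 in hIAPP-Tg islets and 7.06 to 7.23 in wild-type islets. The dimmest of them, Itgam, was at 4.37 in hIAPP-Tg and 4.20 in wild-type islets. The part of these cells in the Cebpb value was not tested.

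Among the genes that feed back on the stress signal or slow growth, Ddit4 had the largest difference of the module. DDIT4 restrains the growth kinase complex mTORC1 and is induced by hypoxia and glucocorticoids as well as by ATF4. Its values were 9.5, 9.8 and 9.7 in hIAPP-Tg islets, against 9.1, 9.5 and 9.1 in wild-type islets (difference 0.43, SE 0.14, interval 0.10 to 0.77; limma adjusted p = 0.557). The ranges met at 9.5, and leaving out each array gave 0.37 to 0.57. Trib3, a pseudokinase that ATF4 and CHOP induce and that inhibits AKT, was at 7.3, 6.9 and 7.4 in hIAPP-Tg islets and at 7.6, 7.1 and 7.3 in wild-type islets. The difference was -0.13 (interval -0.56 to 0.29; limma adjusted p = 0.870), and the second probe set gave 0.067. Chac1, an enzyme that degrades glutathione, varied most of all members, at 9.3, 7.7 and 8.8 in hIAPP-Tg islets and 9.0, 8.6 and 8.1 in wild-type islets. Both genotypes spanned high and low arrays, and the difference of 0.033 had an interval of -1.02 to 1.08. Only 0.791% of the 11755 genes at or above the array median had a range over the 6 arrays as wide as that of Chac1, 1.6. Eif4ebp1, a repressor of cap-dependent translation, was at 8.1, 7.5 and 7.9 in hIAPP-Tg islets and at 8.3, 7.7 and 7.6 in wild-type islets, a difference of -0.033. Ppp1r15a, the phosphatase subunit GADD34 that reverses eIF2 phosphorylation, differed by 0.10, and Sesn2, a leucine sensor upstream of mTORC1, by 0.17.

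**Figure D2:**
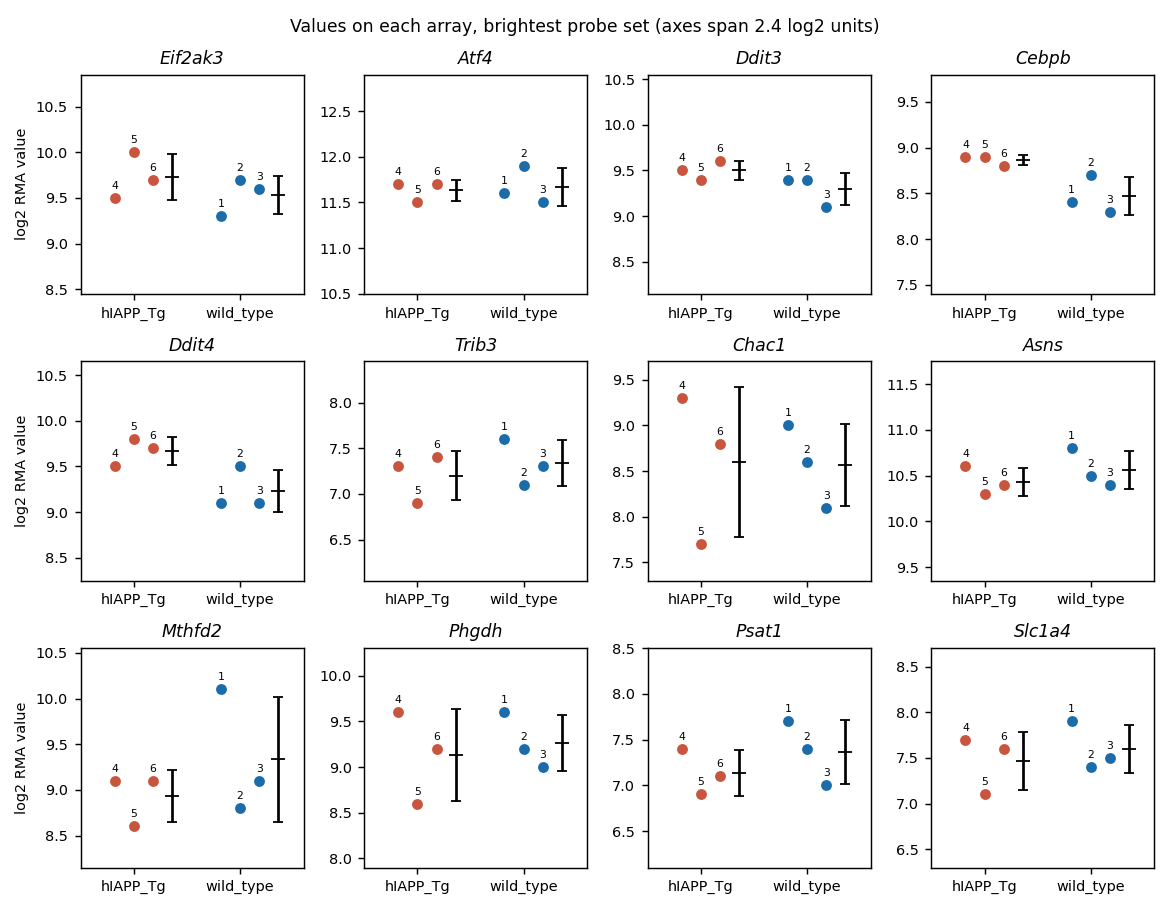
Log2 RMA values (y axis) of 12 genes on each array, hIAPP-Tg left and wild type right, brightest probe set, with replicate numbers at the points and mean ± SD (n = 3) as black bars. The Cebpb groups stand apart, the Ddit4 groups meet at 9.5, and Chac1, Phgdh, Psat1 and Slc1a4 are lowest on hIAPP-Tg replicate 5.

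None of the 5 amino acid transporters passed the test. Slc7a5, the large neutral amino acid carrier, differed by 0.13 and its heavy-chain partner Slc3a2 by 0.10. Slc7a3, a cationic amino acid carrier, differed by 0.10 and Slc6a9, a glycine carrier, by 0.067. Slc1a4, which carries serine and alanine, was at 7.7, 7.1 and 7.6 in hIAPP-Tg islets and at 7.9, 7.4 and 7.5 in wild-type islets. Its difference was -0.13 (interval -0.61 to 0.35; limma adjusted p = 0.893), with the lowest value on hIAPP-Tg replicate 5 and the highest on wild-type replicate 1.

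Enzymes of amino acid synthesis and one-carbon metabolism had a median difference of -0.13, with 2 of the 9 measured above 0 and 6 below, and 0 at an unadjusted p under 0.05 in limma. Asns, asparagine synthetase, was at 10.6, 10.3 and 10.4 in hIAPP-Tg islets, against 10.8, 10.5 and 10.4 in wild-type islets (difference -0.13, interval -0.45 to 0.18; limma adjusted p = 0.810). Its second probe set was at 9.9, 9.7 and 9.8 in hIAPP-Tg islets and at 10.3, 10.0 and 10.0 in wild-type islets, a difference of -0.30 that did not pass either (limma adjusted p = 0.596). That was the one probe set of the 70 lower at an unadjusted p under 0.05, where 3.51% of all probe sets were. The genotypes did not overlap on it, as on 3.22% of all probe sets in this direction. The serine synthesis enzymes were read below 0 on their brightest probe sets. Phgdh, which starts that pathway, was at 9.6, 8.6 and 9.2 in hIAPP-Tg islets and at 9.6, 9.2 and 9.0 in wild-type islets (difference -0.13, interval -0.80 to 0.53). Its other 3 probe sets differed by -0.067, -0.067 and 0.13. Psat1, the next enzyme, was at 7.4, 6.9 and 7.1 in hIAPP-Tg islets and at 7.7, 7.4 and 7.0 in wild-type islets (difference -0.23, interval -0.73 to 0.26). Psph, the last step, differed by -0.13. All 3 genes overlapped between genotypes and were lowest on hIAPP-Tg replicate 5.

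In mitochondrial one-carbon metabolism, Shmt2 differed by -0.17. Mthfd2, which follows it, was at 9.1, 8.6 and 9.1 in hIAPP-Tg islets and at 10.1, 8.8 and 9.1 in wild-type islets. Its difference of -0.40 (interval -1.23 to 0.43; limma adjusted p = 0.791) rested on wild-type replicate 1, which stood above the other arrays, and without that array the difference was -0.017. The second Mthfd2 probe set differed by -0.17. Aldh18a1, of proline synthesis, was the steadiest member, with a difference of 0 and values of 9.8 or 9.9 on every array. Gpt2, the mitochondrial alanine transaminase, differed by 0.067. Cth, which makes cysteine, differed by 0.10 at a mean of 4.0 in hIAPP-Tg islets and 3.9 in wild-type islets, under the array median.

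The secreted, surface and mitochondrial members also overlapped between genotypes. Fgf21, a stress hormone that acinar cells also make, differed by -0.067 at 5.20 in hIAPP-Tg and 5.27 in wild-type islets, under the array median. Stc2, a secreted glycoprotein, differed by 0.17 and Lonp1, a protease of the mitochondrial matrix, by 0.13. Vldlr, a lipoprotein receptor, had a difference of 0.10 on the brightest of its 6 probe sets and of -0.23 to 0.033 on the rest. Of the 20 members with several probe sets, 9 had differences of both signs among them.

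Members also varied between mice of the same genotype. The median within-genotype SD was 0.18 over the 31 members and 0.12 over the genes at or above the array median. Of the 31 members, 18 (58.1%) had a range over the 6 arrays, genotype difference included, of 0.5 or more, as did 28.0% of the genes at or above the array median. Replicate 5 of the hIAPP-Tg mice was alone the lowest array for 13 members (41.9%), as it was for 14.1% of all genes, and replicate 1 of the wild-type mice was alone the highest for 10 (32.3%), as it was for 10.7% of all genes. Among the enzymes, replicate 5 was alone the lowest for 7 of the 9, and the mean deviation of the 9 enzymes from their own means was 0.14, -0.28 and -0.035 in the hIAPP-Tg mice and 0.31, -0.024 and -0.11 in the wild-type mice. Chac1, Trib3, Asns, Fgf21 and Slc1a4, that is 5 of the 7 measured genes with the response element in their window, were also lowest on replicate 5 alone. For Trib3, Asns, Nupr1, Slc1a4 and Vldlr, again 5 of the 7, wild-type replicate 1 was alone the highest. The other 24 measured members had no match, but some of them had no window and so were not searched. Of these 24, 8 (33.3%) were lowest on hIAPP-Tg replicate 5 alone. Wild-type replicate 1 was alone the highest for 5 (20.8%) of these 24. These counts were made after the values were seen and carry no test. The 7 genes with the element differed between genotypes by -0.13 to 0.10. Eif2ak3 and Ddit4 ran the other way, highest on hIAPP-Tg replicate 5, and Eif2ak3 was lowest on wild-type replicate 1.

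**Figure D3:**
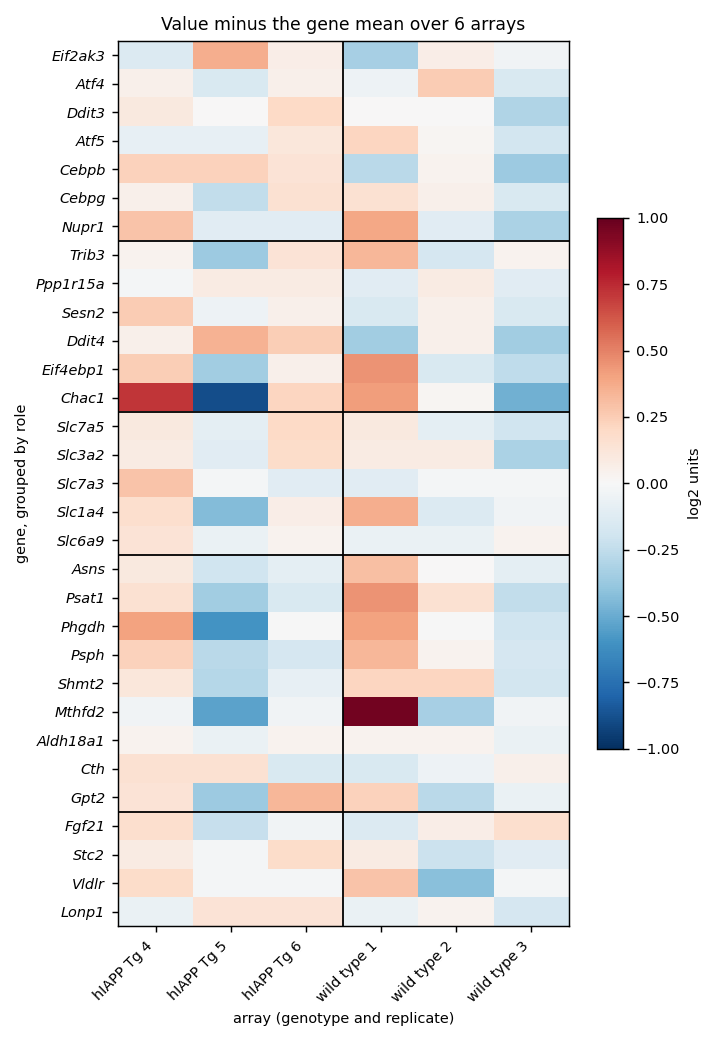
Value minus the gene's mean over the 6 arrays, in log2 units (colour), for the 31 genes (down the page, grouped by role) on each array (hIAPP-Tg left, wild type right). The 6 genes from Asns to Mthfd2 are lowest on hIAPP-Tg replicate 5 and highest or tied for highest on wild-type replicate 1, while Eif2ak3 and Ddit4 are highest on hIAPP-Tg replicate 5.

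The same 2 arrays stood apart in markers of other cells. Over 25 markers of acinar cells, which make digestive enzymes in the surrounding exocrine tissue, the list mean was 10.80, 8.67 and 9.91 in the hIAPP-Tg mice, against 9.76, 10.97 and 11.31 in the wild-type mice. Replicate 5 of the hIAPP-Tg mice was thus lowest in acinar markers too, for 22 of the 25, and 3 of the 25 averaged under the array median. Wild-type replicate 1, where the enzymes were highest, was the lowest wild-type mouse in acinar markers. It was alone the highest array for 8 of 11 fibroblast and stellate cell markers, with a list mean of 8.91, against 8.12 to 8.46 on the other arrays. As a sign of RNA quality, the actin control read 1.2 to 1.3 higher at its 3' than at its 5' end on all 6 arrays. For the Gapdh control this reading was 0.2 on hIAPP-Tg replicate 5 and 0.0 to 0.1 on the other arrays. With the acinar list mean as a covariate in limma, 0 members passed and their median difference was 0.076. The part of these cells in the differences between mice was not tested.

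**Figure D4:**
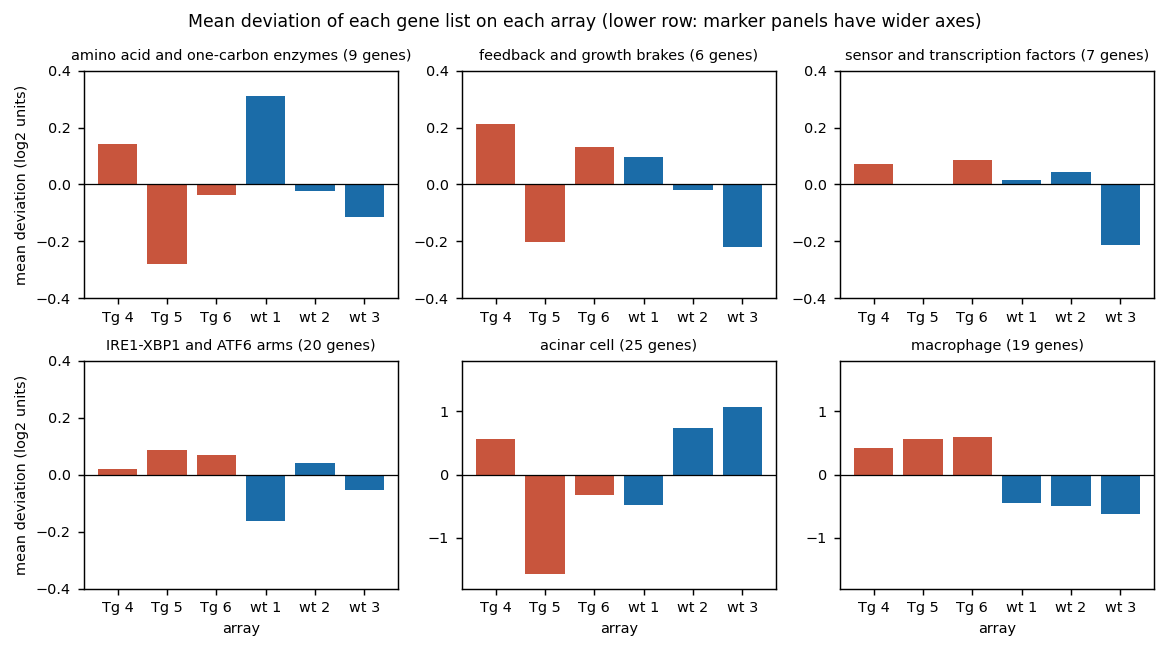
Mean deviation of 6 gene lists on each array in log2 units (y axis; the acinar and macrophage panels have wider axes), hIAPP-Tg arrays left and wild-type arrays right. The enzymes are at -0.28 on hIAPP-Tg replicate 5 and 0.31 on wild-type replicate 1, and the macrophage markers separate the genotypes.

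Further genes of the pathway were followed in lists beside the module, and 0 of them had a limma adjusted p under 0.05. Among 14 genes of the eIF2 kinases, eIF2 subunits, the exchange factor eIF2B and regulators of eIF2 phosphorylation (Ppp1r15b, Ppp1cc, Nck1 and Dnajc3), the median difference was 0.067 (10 above 0 and 1 below), with 0 at an unadjusted p under 0.05 in either direction. The aminoacyl-tRNA synthetases, many of which ATF4 induces, split 10 above and 9 below 0 with a median of 0.067 (19 measured; 0 at an unadjusted p under 0.05). Other amino acid transporters had a median of -0.050 (18 measured, 2 above 0 and 14 below). The one of them at an unadjusted p under 0.05 was Slc3a1, a cystine carrier subunit, with a difference of -0.37, under the array median at 5.20 in hIAPP-Tg and 5.57 in wild-type islets. Other amino acid and one-carbon enzymes had a median of 0.13 (19 measured, 15 above 0 and 2 below). At an unadjusted p under 0.05, 0 were lower and 2 higher, the proline enzyme Pycrl (0.30) and the cytosolic folate enzyme Mthfd1 (0.20). Over all genes 5.02% were higher and 3.45% lower at that p. Pycrl was at 7.4, 7.7 and 7.6 in hIAPP-Tg islets, against 7.3, 7.3 and 7.2 in wild-type islets. The genotypes did not overlap, as for 4.49% of all genes in this direction.

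Other factors and targets linked to PERK and ATF4 had a median difference of 0.067 (24 measured, 16 above 0 and 8 below). At an unadjusted p under 0.05, 5 were higher and 1 lower, where 5.02% and 3.45% of all genes were. Cebpd, a further C/EBP factor, was at 7.5, 8.7 and 8.3 in hIAPP-Tg islets and at 7.3, 7.3 and 6.5 in wild-type islets, a difference of 1.13 (interval 0.27 to 2.00; limma adjusted p = 0.552). Jun differed by 0.57 and Atf3, a stress-induced repressor, by 0.33. The genotypes did not overlap for these 3 genes, as for 4.49% of all genes in this direction. Jun and Atf3 are immediate early genes as well. As a group the immediate early genes had a median difference of 0.35 (18 measured, 17 above 0 and 0 below), with 7 higher at an unadjusted p under 0.05, where 5.02% of all genes were, among them Fosb (0.67), Jun and Egr1 (0.57). Wild-type replicate 3 was alone the lowest array for 11 of the 18, as it was for 10.1% of all genes. Its list mean was 7.64, against 7.87 to 8.14 on the other arrays. Without that array the median was 0.29, with 16 above 0, 2 below and 5 higher at that p. The number higher at that p was 4, 5 and 3 without hIAPP-Tg replicates 4, 5 and 6 in turn. It was 9 without wild-type replicate 1 and 8 without wild-type replicate 2. In the IRE1-XBP1 and ATF6 arms of the same stress response, 19 of 20 genes lay above 0, with a median of 0.10 and 1 higher at an unadjusted p under 0.05. Wild-type replicate 1 was alone the lowest array for 9 of the 20. It was so for 16.0% of all genes and for 19.0% of those at or above the array median. Its list mean was 10.97, against 11.08 to 11.22 on the other arrays. Without that array the median was 0.075, with 15 above 0, 4 below and 0 at an unadjusted p under 0.05. The number at that p was 0 to 3 without each array in turn. Xbp1, the spliced transcription factor of the IRE1 arm, was at 12.6, 12.4 and 12.4 in hIAPP-Tg islets and at 12.3, 12.2 and 12.3 in wild-type islets, a difference of 0.20 that did not pass (limma adjusted p = 0.620). Over all genes the median difference was 0, with 8739 above 0 and 7359 below.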

How the data were processed

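Per the labels' protocols, 150 ng of total islet RNA per mouse was turned into biotin-labelled cRNA. The authors made the deposited log2 values with RMA (affy), per the submitters' processing notes; the versions are not given in the sources used. RMA gives all arrays the same distribution of probe intensities, though not exactly of the probe set values made from them. No pooling is stated. Precision is limited by the number of arrays. No 2 arrays held identical values.

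From the 45101 rows, 64 control probe sets were left out. Gene names came from the platform annotation: 34945 probe sets had 1 symbol, 932 had several (2 of them with Phgdh, not used) and 9160 were unnamed. Older symbols of the listed genes were matched through the RefSeq table of GRCm38.p6, only where they were no current symbol of another gene. A two-sided limma test (version 3.58.1, R 4.3.3; lmFit, eBayes), with genotype as the only term, was run on each of the 45037 probe sets and adjusted after Benjamini and Hochberg. The fit was tested on simulated data with 200 changed probe sets. At a limma adjusted p under 0.05 it recovered 71% of log2 changes of 1 and 96% of changes of 2. Changes as small as those of the members were not simulated. With no change simulated, 6.50% of probe sets had a limma unadjusted p under 0.05. Figures used matplotlib 3.10.9 in Python 3.11.15.

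The members and lists were chosen with earlier results of these data known. Every member is named. Values on all arrays were given for Eif2ak3, Atf4, Ddit3, Trib3, Asns and Chac1, for members without overlap or with an unadjusted p under 0.05, and for the 5 widest ranges, with ties. Other lists name up to 3 genes per direction that did not overlap and had an unadjusted p under 0.05. Alternatives were 11 other settings and leaving out each array.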

Additional observations from a re-analysis of the deposited data

How the results depend on the processing

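No member passed a limma adjusted p of 0.05 under any of the 11 alternatives run or without any 1 array. No paired analysis was possible because the replicate numbers, 1 to 3 and 4 to 6, are not shared between genotypes. At an unadjusted p under 0.05 there were 2 members, against 1 with the ordinary test without moderation and 1 to 3 without 1 array. With array quality weights there were 3, as Ddit3 joined Cebpb and Ddit4. Its difference was then 0.30 (limma unadjusted p = 0.027, adjusted p = 0.415). Over all probe sets 13 passed, against 3 with the acinar covariate, 0 with the macrophage covariate, 1 with the ordinary test, 26 with array quality weights, 30 with quantile normalization, 51 with the robust prior, and 1 to 4 without 1 array. The median member difference was -0.033 to 0.10 without 1 array and -0.34 with the macrophage covariate, whose values do not overlap between genotypes, so that covariate and genotype can hardly be told apart.

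Of 524 member differences under the alternatives, 0 crossed the threshold of the adjusted p and 50 changed sign, 24 of these without 1 array. Of the other 474, 452 kept their sign and 22 were 0 in the main result or under the alternative, 17 of them for Aldh18a1. Leaving out each array was also run for the lists of the immediate early genes and of the IRE1-XBP1 and ATF6 arms, chosen after seeing the data: the medians were 0.29 to 0.43 and 0.075 to 0.13. With the macrophage covariate the differences that changed sign became -0.86 for Ddit3, -0.72 for Ddit4, -0.24 for Eif2ak3, 1.69 for Fgf21, -0.28 for Gpt2, -0.96 for Lonp1, -0.43 for Nupr1, 0.42 for Phgdh, -0.41 for Ppp1r15a, 0.013 for Psph, -1.15 for Slc3a2, -0.63 for Slc7a5 and -0.32 for Stc2, and that of Cebpb was 0.048. With the acinar covariate they became 0.028 for Atf4, 0.098 for Fgf21, -0.011 for Nupr1 and 0.0099 for Phgdh. Array quality weights gave 0.043 for Atf4, 0.083 for Atf5, 0.067 for Cebpg and 0.0998 for Eif4ebp1. Averaged probe sets gave 0.044 for Atf4, 0.011 for Cebpg and -0.050 for Vldlr, and quantile normalization -0.0056 for Chac1 and -0.011 for Nupr1. The cause was not tested. Without 1 array the differences that changed sign ran from -0.12 to 0.083 for Atf4, -0.13 to 0.067 for Atf5, -0.12 to 0.083 for Cebpg, -0.32 to 0.48 for Chac1, -0.17 to 0.18 for Eif4ebp1, -0.17 to 0.033 for Fgf21, -0.083 to 0.27 for Gpt2, -0.12 to 0.23 for Nupr1, -0.37 to 0.13 for Phgdh, -0.25 to 0.05 for Slc1a4, -0.033 to 0.18 for Slc3a2, -0.017 to 0.18 for Slc7a3, -0.25 to 0.017 for Trib3 and -0.083 to 0.27 for Vldlr. That of Asns ran from -0.22 to -0.017.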

Other observations

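Beta-cell markers had a median difference of -0.13 (11 measured, 2 above 0 and 8 below), with 0 at an unadjusted p under 0.05 in limma, and hIAPP-Tg replicate 5 was alone the lowest array for 6 of the 11. Markers of the other hormone cells had a median of -0.067 (8 measured, 2 above 0 and 5 below). At an unadjusted p under 0.05, 2 of them were lower, where 3.45% of all genes were. These were the delta-cell factor Hhex (-0.33) and the alpha-cell factor Irx2 (-0.23). Duct markers had a median of 0.083 (8 measured, 4 above 0 and 2 below). The 2 higher at that p, where 5.02% of all genes were, were Krt7 (0.33) and Epcam (0.17). Endothelial markers had a median of 0 (10 measured, 2 above 0 and 4 below) and ran from -0.37 for Emcn to 0.27 for Flt1. Of the 10, 3 were lower at that p, where 3.45% of all genes were, and of these the angiopoietin receptor gene Tek (-0.33) had no overlap between genotypes. Fibroblast and stellate cell markers had a median of -0.20 (11 measured, 5 above 0 and 6 below), with 2 higher and 1 lower at that p. Pdgfrb (0.43) was named because its genotypes did not overlap; Acta2 (0.60) and Lum (-0.50), the others at that p, were named after their values were seen, as were Emcn and Flt1. Acinar markers had a median of -0.97 (25 measured, 1 above 0 and 23 below), with 1 lower at that p. None of these named genes passed a limma adjusted p of 0.05, nor did any gene of these lists. Of the macrophage markers, 3 of 19 passed. The rule named Lyz1 (2.47), its near-identical paralog Lyz2 (2.47) and Cd68 (1.90), and Lyz1 was among the 3 that passed.

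Ddit4 and Vldlr also respond to low oxygen. The hypoxia and glycolysis list had a median difference of 0.050 (18 measured, 12 above 0 and 6 below), and 0 of its genes passed in limma. At an unadjusted p under 0.05, 2 were higher, where 5.02% of all genes were, and 1 was lower, where 3.45% were. The lower one, named after its values were seen, was the vessel growth factor gene Vegfa (-0.37). Pgk1, a glycolytic kinase, was at 11.1, 11.2 and 11.1 in hIAPP-Tg islets, against 10.6, 10.8 and 10.7 in wild-type islets. Ldha, lactate dehydrogenase, was at 8.2, 8.3 and 8.3 in hIAPP-Tg islets, against 8.1, 7.7 and 7.7 in wild-type islets. Both differed by 0.43 without overlap between the genotypes, where 4.49% of all genes stood so in this direction. The part of low oxygen in the Ddit4 value was not tested.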
